A study of Mus musculus with 3 samples.

Results

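The 8 genes described here encode the classical MHC class II chains of the mouse (H2-Aa, H2-Ab1 and H2-Eb1), the proteins that load them with peptide (Cd74, H2-DMa, H2-DMb1 and H2-Oa) and their master regulator (Ciita). They were taken by symbol, and all 8 were among the 16072 named genes of the expression table. RNA-seq had been performed on Ly6G+ myeloid cells from the bone marrow (BM) of C57BL/6 mice bearing subcutaneous B16.F10 melanoma. The tumour cells had been given 1 week before an adeno-associated virus that was injected into muscle. In the AAV-Ctrl group (2 libraries, 1 per mouse) the vector was empty, and in the AAV-IL-27 group (1 library) it carried both chains of murine IL-27 as a single linked protein under the ubiquitous CAG promoter. Mice were 6 to 10 weeks old at use. Collection was 3 weeks after the vector, a time given for Gr-1+ BM cells that are taken here to be the same cells. A further column of the table carries an IL-27 name but matches no listed sample, so it was not used and the AAV-IL-27 values rest on 1 library. The comparison asks how class II expression in these cells differed with sustained IL-27 exposure.

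MHC class II molecules display peptides from ingested proteins to CD4+ T cells. An alpha and a beta chain pair in the endoplasmic reticulum around the invariant chain, CD74, which escorts them to endosomes and is then cut away by cathepsins. H2-DM exchanges the remaining invariant chain fragment for peptide, and H2-O restrains H2-DM, mainly in B cells and some dendritic cells. B cells, dendritic cells and activated macrophages carry class II, whereas neutrophils carry little under resting conditions. Transcription depends on CIITA, which interferon-gamma induces with the help of IRF1 and which docks onto a complex of RFX, CREB and NF-Y proteins bound to the X and Y boxes of class II promoters. C57BL/6 mice do not assemble I-E molecules, because the alpha chain gene of I-E is defective in this strain, although H2-Eb1 is transcribed.

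Most of these genes lie together in the MHC on chromosome 17 of GRCm38, the assembly that the name mm10 in the submitters' processing notes denotes. In RefSeq they follow in the order H2-Oa (34092379 to 34095234), H2-DMa (34119693 to 34139101), H2-DMb1 (34153191 to 34160229), H2-Ab1 (34263227 to 34269418), H2-Aa (34282744 to 34287823) and H2-Eb1 (34305867 to 34316674). The related genes H2-DMb2, H2-Ob and H2-Eb2 lie within or next to the same stretch of chromosome 17 and were described beside them.

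The promoter sequences are shown because the X and Y boxes are the element through which CIITA acts on the family. RefSeq promoter windows of GRCm38.p6 (250 bases before and 50 after a start site) were found for 5 of the 8 genes, H2-Aa, H2-Eb1, H2-DMa, H2-DMb1 and H2-Oa, and for all 3 related genes. The 60 bases below run 5′ to 3′ on the strand of each gene. Capitals mark ATTGG, the core of the Y box to which NF-Y binds, and, where present 28 to 36 bases before it, GNAAC, letters found in the RFX-binding X box.
H2-Aa (chr17:34287857-34287916, minus strand): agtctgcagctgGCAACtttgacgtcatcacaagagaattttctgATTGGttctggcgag
H2-Eb1 (chr17:34305763-34305822, plus strand): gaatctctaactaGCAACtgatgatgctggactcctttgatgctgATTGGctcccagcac
H2-DMb1 (chr17:34153085-34153144, plus strand): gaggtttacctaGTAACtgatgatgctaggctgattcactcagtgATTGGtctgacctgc
H2-DMb2 (chr17:34145114-34145173, plus strand): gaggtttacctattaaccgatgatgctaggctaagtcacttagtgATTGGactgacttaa
H2-Oa (chr17:34092291-34092350, plus strand): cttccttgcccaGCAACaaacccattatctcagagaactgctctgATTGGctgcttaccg
H2-Ob (chr17:34238803-34238862, plus strand): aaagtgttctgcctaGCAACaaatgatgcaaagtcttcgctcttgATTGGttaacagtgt
H2-Eb2 (chr17:34325530-34325589, plus strand): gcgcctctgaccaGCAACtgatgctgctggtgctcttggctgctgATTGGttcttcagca

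On the strand of the gene and within 150 bases before the start, ATTGG was present in 7 of these 8 genes, from 43 bases before the start in H2-Oa to 100 in H2-Eb2. H2-DMa had no match in that stretch at either of its 2 listed starts. GNAAC followed by ATTGG at the stated distance was present in 6 genes, and the letters began 30 bases apart in H2-Ob, 32 in H2-Eb1 and H2-Eb2 and 33 in H2-Aa, H2-DMb1 and H2-Oa. In H2-DMb2 the Y box letters were present without GNAAC. Among all 32851 promoter windows, 13.7% had ATTGG in that stretch on the gene's strand, 13.3% had it on the opposite strand, where it reads CCAAT, and 0.484% held the spaced pair. In the whole window and on either strand, ATTGG was found in 37.4% and GNAAC in 84.8%. The letters GNAAC and the distance were chosen after these promoters had been read, so the share of class II genes is a description. The stated distance is longer than either motif, so the 2 marked motifs could not overlap.

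**Figure D1:**
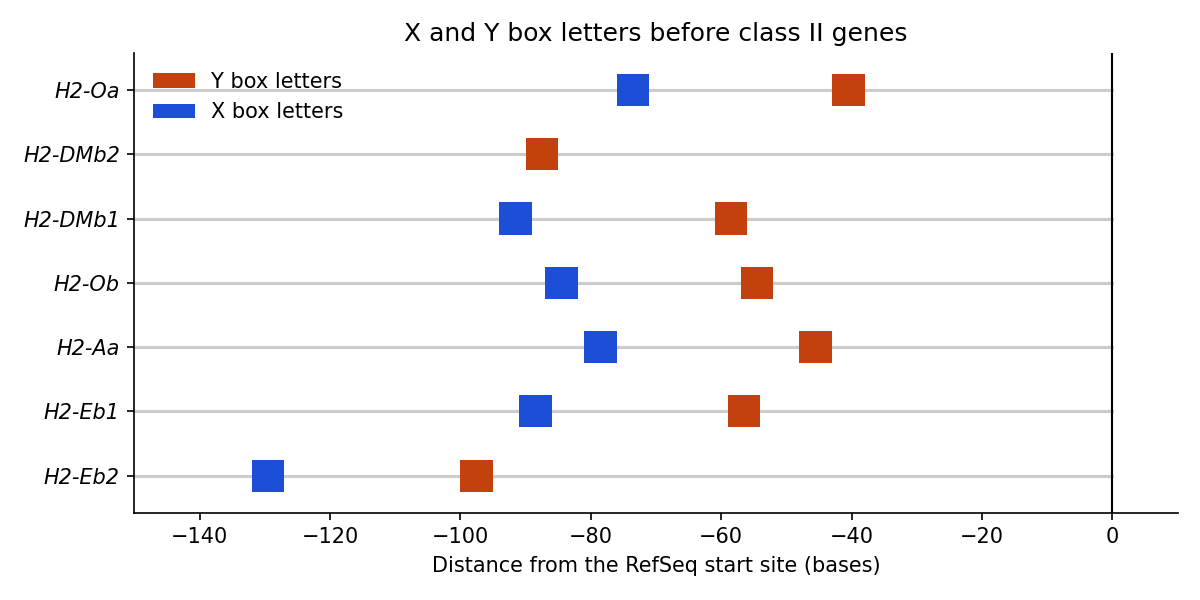
Position of the X box letters (blue) and Y box letters (orange) before 7 class II genes, in bases from the RefSeq start site at 0; each bar spans the 5 bases of a match. The Y box letters lie between 100 and 43 bases before the start, and the X box letters of 6 genes begin 30 to 33 bases further upstream.

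Expression was deposited as FPKM, a level per transcript length, so levels can be set beside each other between genes. Counts are not in the table. Steps among its low values put the depth near 19100000 fragments for AAV-Ctrl 1, 19400000 for AAV-Ctrl 2 and 19000000 for AAV-IL-27. Where 3 values are listed for a gene or ratio, AAV-Ctrl 1 comes first, AAV-Ctrl 2 second and AAV-IL-27 last. FPKM summed to between 573759 and 594158 per library. The label of the cells was met by neutrophil genes. S100a9, a calcium-binding protein of neutrophils, stood at 73508, 71786 and 68765 FPKM and its partner S100a8 at 41371, 38113 and 38320 FPKM. Ly6g, which encodes the sorted antigen, stood at 712, 766 and 586 FPKM. Differences are given as log2(FPKM + 1), a scale that understates changes of genes with low values. With 2 libraries against 1 no test was run, and each difference was set beside the gap between the AAV-Ctrl libraries. In bulk RNA, fewer cells of a type and less RNA per cell cannot be told apart.

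All 8 genes had their lowest FPKM in the AAV-IL-27 library, but for H2-Aa, H2-Ab1, H2-Eb1 and H2-DMb1 the difference from the AAV-Ctrl mean was smaller than the gap between the AAV-Ctrl libraries. Summed over the 8 genes, levels were 227, 342 and 186 FPKM. The AAV-IL-27 sum was 65.5% of the AAV-Ctrl mean, 82.3% of AAV-Ctrl 1 and 54.5% of AAV-Ctrl 2, while AAV-Ctrl 2 stood at 151% of AAV-Ctrl 1.

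**Figure D2:**
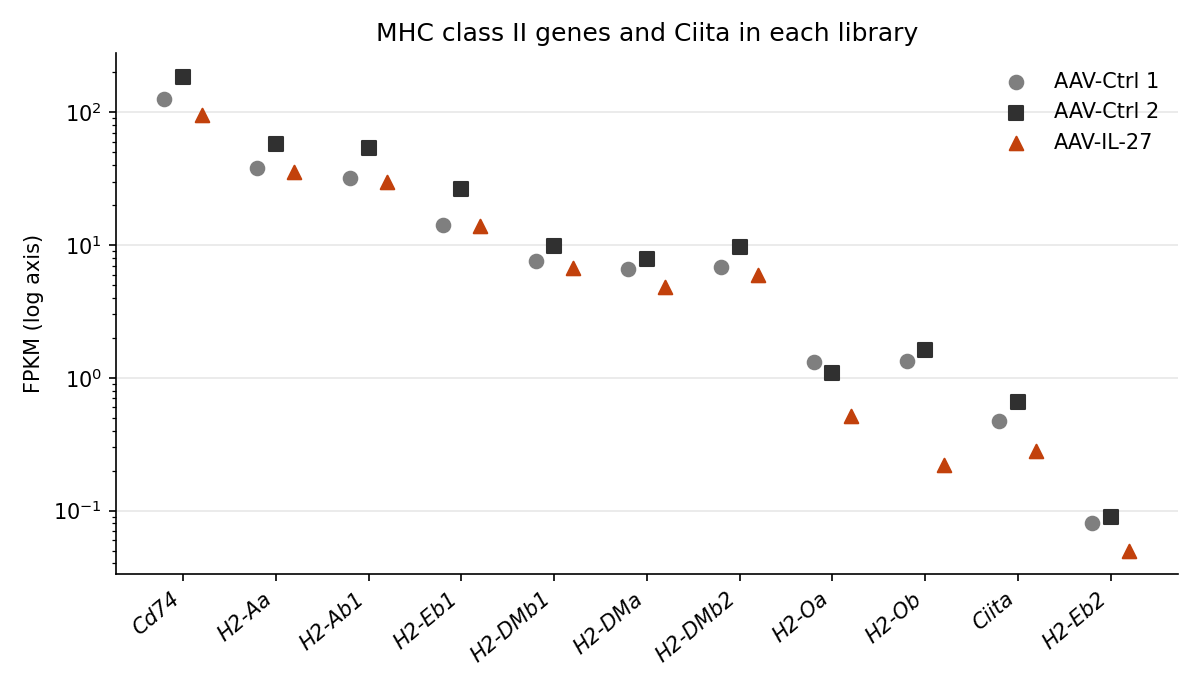
FPKM (log axis) of the 8 class II genes and of H2-DMb2, H2-Ob and H2-Eb2 in AAV-Ctrl 1 (grey circles), AAV-Ctrl 2 (black squares) and AAV-IL-27 (orange triangles), 1 point per library. Levels span from 185 FPKM for Cd74 to 0.05 FPKM for H2-Eb2, and the orange point is the lowest of each gene.

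H2-Aa, the alpha chain of I-A, was at 37.92, 57.46 and 35.58 FPKM. Its partner H2-Ab1, the beta chain of I-A, was at 31.93, 53.50 and 29.65 FPKM. H2-Eb1, the beta chain of I-E, was at 14.28, 26.53 and 13.98 FPKM. For each of the 3 chains the AAV-IL-27 value lay just under AAV-Ctrl 1, and AAV-Ctrl 2 stood apart from both. As means, AAV-Ctrl was at 47.7 ± 13.8 FPKM (SD, n = 2) for H2-Aa, 42.7 ± 15.3 FPKM (SD, n = 2) for H2-Ab1 and 20.4 ± 8.66 FPKM (SD, n = 2) for H2-Eb1. The log2 difference from the AAV-Ctrl mean was -0.38 for H2-Aa, against a gap of 0.59 between the AAV-Ctrl libraries. It was -0.47 for H2-Ab1, with a gap of 0.73, and -0.45 for H2-Eb1, with a gap of 0.85. None of the 3 differences was as large as its gap.

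Estimated fragment numbers, with exact 95% Poisson intervals that cover counting error only, gave the same order. H2-Aa had 766 fragments (713 to 822), 1179 (1113 to 1248) and 715 (664 to 769). H2-Eb1 had 436 (396 to 479), 823 (768 to 881) and 425 (386 to 467). The intervals of AAV-IL-27 and AAV-Ctrl 1 overlapped for H2-Aa, H2-Ab1 and H2-Eb1, and those of the AAV-Ctrl libraries did not overlap each other. In 2 of the 8 genes the AAV-IL-27 interval lay below both AAV-Ctrl intervals. The AAV-Ctrl 1 interval lay below that of AAV-Ctrl 2 in 5 of the 8. No share over all genes was computed for intervals, so separate intervals only describe each gene and do not set it apart from other genes. The chains kept similar proportions. The ratio of H2-Aa to H2-Ab1 was 1.19, 1.07 and 1.20, and that of H2-Eb1 to H2-Ab1 was 0.447, 0.496 and 0.472.

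Cd74, the invariant chain, lies outside the MHC on chromosome 18 (60803849 to 60812652) and was the most abundant of the 8 genes in each library. It was at 126.49, 185.34 and 94.94 FPKM, and AAV-Ctrl was at 156 ± 41.6 FPKM (SD, n = 2). The AAV-IL-27 value was 75.1% of AAV-Ctrl 1 and 51.2% of AAV-Ctrl 2. The log2 difference of -0.68 from the AAV-Ctrl mean exceeded the gap of 0.55 between the AAV-Ctrl libraries. Against AAV-Ctrl 1 alone the log2 difference was -0.41, which was smaller than that gap. Cd74 had an estimated 3013 fragments (2906 to 3123), 4484 (4354 to 4617) and 2249 (2157 to 2344), with intervals that did not overlap. The ratio of Cd74 to H2-Aa was 3.34 and 3.23 in the AAV-Ctrl libraries and 2.67 in AAV-IL-27.

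H2-DMa and H2-DMb1 encode the chains of the peptide exchange factor H2-DM. H2-DMa was at 6.62, 7.87 and 4.81 FPKM, so that both AAV-Ctrl values lay above AAV-IL-27 by more than they differed from each other. Its log2 difference was -0.50, with a gap of 0.22, and its estimated fragments were 201 (174 to 231), 242 (212 to 274) and 145 (122 to 171), without overlap between AAV-IL-27 and either AAV-Ctrl library. H2-DMb1 was at 7.54, 9.91 and 6.68 FPKM, and its log2 difference of -0.33 was smaller than the gap of 0.35. H2-DMb2, a second beta chain gene, was at 6.82, 9.68 and 5.97 FPKM with a log2 difference of -0.39 and a gap of 0.45. The transcripts of H2-DMb1 and H2-DMb2 were 94.6% identical over 1255 aligned bases, so the division of fragments between them is uncertain.

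The inhibitor H2-O stood at lower levels than the H2-DM chains. H2-Oa, its alpha chain, was at 1.31, 1.09 and 0.52 FPKM, the only one of the 8 genes with the higher AAV-Ctrl value in AAV-Ctrl 1. Its log2 difference was -0.53 with a gap of -0.14 (AAV-Ctrl 2 minus AAV-Ctrl 1), and its estimated 25, 22 and 10 fragments had intervals that overlapped, from 16.2 to 36.9, from 13.8 to 33.3 and from 4.80 to 18.4. H2-Ob, the beta chain, was at 1.34, 1.63 and 0.22 FPKM. The AAV-IL-27 value of H2-Ob was 14.8% of the AAV-Ctrl mean, against 43.3% for H2-Oa and 66.4% for H2-DMa. H2-Ob had an estimated 67 fragments (51.9 to 85.1), 82 (65.2 to 102) and 11 (5.49 to 19.7), and the AAV-IL-27 interval lay below both others. Its log2 difference was -1.02 with a gap of 0.17, and against AAV-Ctrl 1 alone it was -0.94. H2-Eb2 was at 0.08, 0.09 and 0.05 FPKM, an estimated 3 to 6 fragments per library, which is too few to compare.

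Ciita, on chromosome 16 (10480014 to 10531064), had the lowest level of the 8 genes, at 0.47, 0.66 and 0.28 FPKM. The AAV-IL-27 value was the lowest, at 49.6% of the AAV-Ctrl mean of 0.565 ± 0.134 FPKM (SD, n = 2), with a log2 difference of -0.29 and a gap of 0.18. These levels correspond to an estimated 37 fragments (26.1 to 51.0), 53 (39.7 to 69.3) and 22 (13.8 to 33.3). The interval of AAV-IL-27 overlapped that of AAV-Ctrl 1 but not that of AAV-Ctrl 2. The median length of its 5 listed transcripts was used for this estimate. Overlap of separate intervals does not settle whether Ciita differed between AAV-IL-27 and AAV-Ctrl 1, which was not tested.

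By level, the 8 genes followed the order Cd74, H2-Aa, H2-Ab1, H2-Eb1, H2-DMb1, H2-DMa, H2-Oa and Ciita in each of the 3 libraries. The lowest AAV-Ctrl value of Cd74 was above the highest of H2-Aa, and likewise for H2-Ab1 against H2-Eb1, H2-Eb1 against H2-DMb1, H2-DMa against H2-Oa and H2-Oa against Ciita. H2-Aa and H2-Ab1, and H2-DMb1 and H2-DMa, were neighbours whose AAV-Ctrl values overlapped.

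With a mean of at least 1 FPKM, 6 of the 8 genes entered the counts, and H2-Oa and Ciita did not. Of these 6 genes, 0 were lower and 0 were higher than both AAV-Ctrl libraries by at least 1 log2 unit. Over all 9130 genes with that level, 2.32% were lower by this measure and 0.307% higher. At 0.5 log2 unit the counts for the class II genes were again 0 and 0, beside 7.01% lower and 1.57% higher of all genes. By any amount, 6 of 6 were below both AAV-Ctrl libraries, as were 41.9% of all genes, and without the filter 8 of 8 were, beside 41.8%. With equal totals or median ratios 5 of 6 were, since the log2 difference of H2-Eb1 from AAV-Ctrl 1 moved from -0.03 to 0.02. No share of all genes was computed for rescaled values. For genes with a mean of 0.2 to 2 FPKM, the range of H2-Oa and Ciita, the share below both without rescaling was 60.6%. The 8 genes were measured in the same 3 libraries and are not replicates of each other. The difference from the AAV-Ctrl mean exceeded the gap between the AAV-Ctrl libraries in 2 of the 6 genes, Cd74 and H2-DMa, beside 65.8% of all genes in either direction and 34.5% in the downward direction.

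The median log2 difference of the 6 genes was -0.46, against -0.01 over all genes, and their median gap between the AAV-Ctrl libraries was 0.57, against 0.00. In AAV-Ctrl 2, 4 of the 6 genes were higher than in AAV-Ctrl 1 by at least 0.5 log2 unit, and 1.02% of all genes were. A gap as large in either direction as that of H2-Eb1 was found for 0.186% of the 9130 genes, as that of H2-Ab1 for 0.416%, as that of H2-Aa for 0.953% and as that of Cd74 for 1.14%. A difference as low as that of Cd74 was found for 5.62% of the genes and one as low as that of H2-Aa for 11.7%. The values depend on which AAV-Ctrl library is used, since the median difference was -0.75 against AAV-Ctrl 2 alone and -0.13 against AAV-Ctrl 1 alone.

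**Figure D3:**
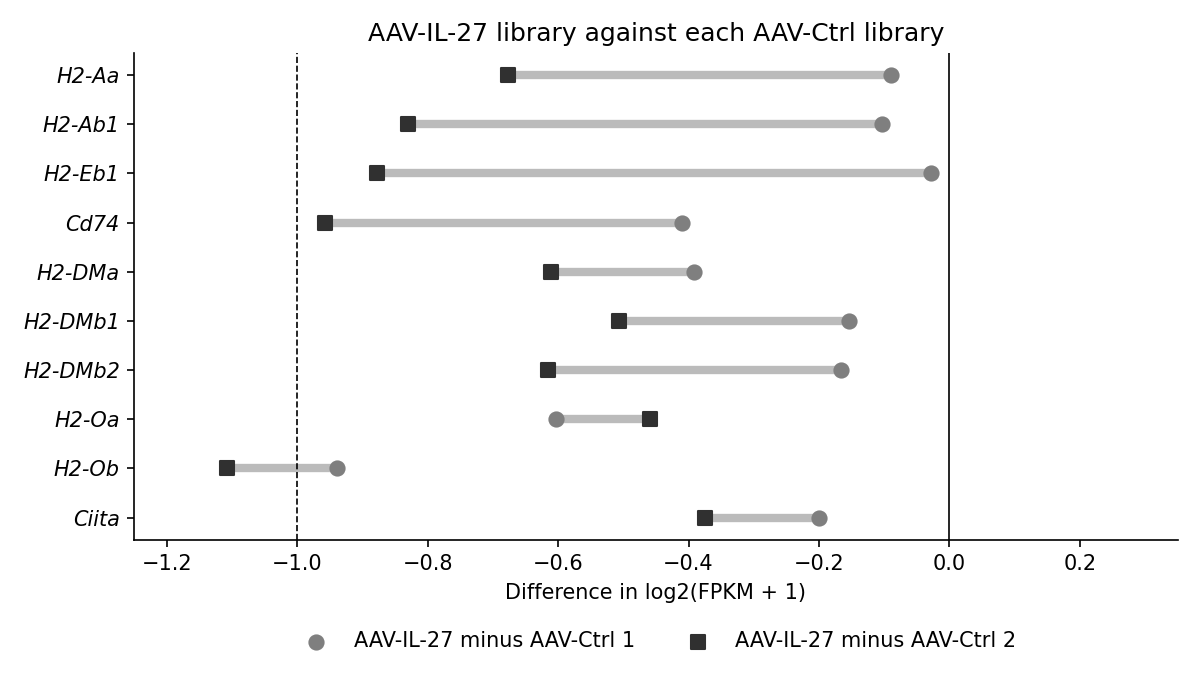
log2(FPKM + 1) in AAV-IL-27 minus that in AAV-Ctrl 1 (grey circles) or in AAV-Ctrl 2 (black squares) for the 8 class II genes, H2-DMb2 and H2-Ob; the grey bar is the gap between the AAV-Ctrl libraries and the dashed line marks -1. The points against AAV-Ctrl 1 lie between -0.03 and -0.15 for H2-Aa, H2-Ab1, H2-Eb1 and H2-DMb1, and H2-Ob reaches -1.11 against AAV-Ctrl 2.

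The interferon-gamma route holds inducers of Ciita and the inhibitor Socs1. Of 6 genes counted in it, 4 were above both AAV-Ctrl libraries and 0 below, beside 38.9% of all genes above both. With either rescaling 5 were above. Rescaling also moved the median difference over all genes from -0.01 to 0.03 or 0.05, and no share of all genes was computed for rescaled values. Irf1, a transcription factor that acts on a Ciita promoter, was at 84.16, 86.04 and 103.53 FPKM, a log2 difference of 0.28 with a gap of 0.03. Socs1, a feedback inhibitor of JAK kinases, was at 3.35, 3.55 and 6.97 FPKM, a difference of 0.84 with a gap of 0.06 (202% of the AAV-Ctrl mean). None of these 6 genes was higher than both AAV-Ctrl libraries by 1 log2 unit, beside 0.307% of all genes. Socs1 alone was by 0.5, beside 1.57%. The receptor genes Ifngr1 and Ifngr2 had differences of 0.04 and 0.19.

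Transcripts of the promoter complex lay on both sides of AAV-Ctrl. Of 7 genes for RFX, NF-Y and CREB subunits, 2 were below both AAV-Ctrl libraries, 3 above and 2 between. Over all genes, 41.9% were below both and 38.9% above. The differences of the 7 genes ran from -0.18 (Nfyb) to 0.20 (Rfxank). Rfx5, the DNA-binding RFX subunit, was at 2.68, 2.48 and 3.00 FPKM. With median ratios 1 was below and 5 were above, without a share of all genes for that scaling.

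Among 7 genes for the proteolysis of antigen and invariant chain, 5 were below both AAV-Ctrl libraries and 1 above, beside 41.9% and 38.9% of all genes. With either rescaling the counts became 4 and 2, where Ctss lay between the AAV-Ctrl libraries and Sppl2a above them. No share of all genes was computed for rescaled values. Lgmn, the endosomal asparaginyl protease, was at 28.52, 28.38 and 14.40 FPKM, a difference of -0.94 with a gap of -0.01. Ctsb, the protease cathepsin B, was at 129.52, 135.43 and 71.41 FPKM, a difference of -0.88 with a gap of 0.06. Both are also abundant in macrophages. Ctss, cathepsin S, which makes the last cut in the invariant chain in B cells and dendritic cells, was at 59.63, 64.09 and 58.22 FPKM, and Ifi30, the thiol reductase of the endosome, at 14.76, 19.06 and 19.27 FPKM. Of these 7 genes, 2 were lower than both AAV-Ctrl libraries by 0.5 log2 unit (Lgmn and Ctsb) and 0 by 1. The shares over all genes were 7.01% and 2.32%.

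Genes of class II turnover and co-stimulation were divided. March1, the ubiquitin ligase that removes class II from the surface, was at 28.57, 23.37 and 28.69 FPKM. Cd86 was at 7.74, 7.68 and 6.10 FPKM and its relative Cd80 at 5.61, 5.76 and 7.27 FPKM, on opposite sides of AAV-Ctrl. Cd83, which protects class II from that ligase, was at 1.96, 3.39 and 1.33 FPKM, with a gap of 0.57 between the AAV-Ctrl libraries like that of the class II genes. Its log2 difference of -0.63 from the AAV-Ctrl mean exceeded that gap, which was not so for H2-Aa, H2-Ab1 and H2-Eb1. Against AAV-Ctrl 1 alone the difference of Cd83 was -0.35, smaller than its gap, as was so for these chains. Of the 6 genes measured, 4 were below both AAV-Ctrl libraries and 2 above. Of the 5 with a mean of at least 1 FPKM, 3 were below and 2 above, beside 41.9% and 38.9% of all genes.

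**Figure D4:**
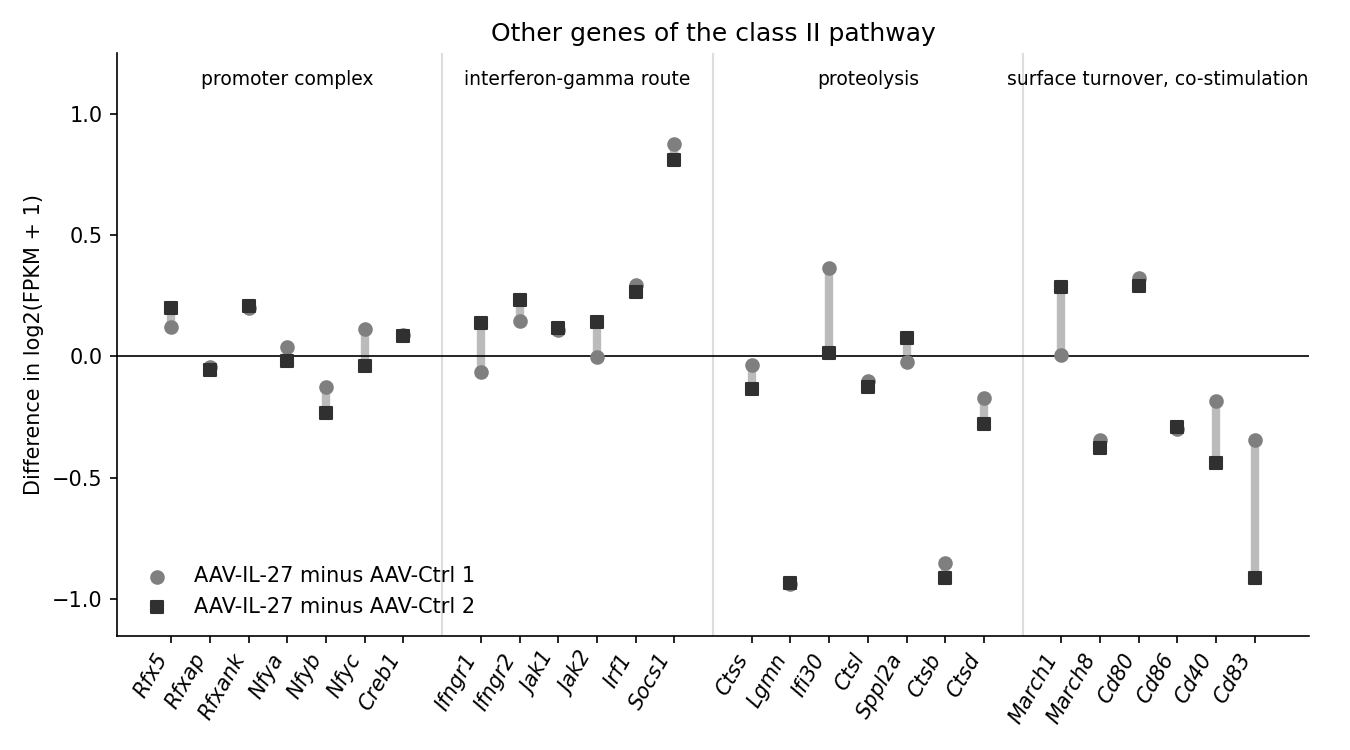
log2(FPKM + 1) in AAV-IL-27 minus that in AAV-Ctrl 1 (grey circles) and AAV-Ctrl 2 (black squares) for 26 other genes of the class II pathway in 4 groups. Socs1 is highest, at 0.87 and 0.81, and Lgmn lowest against both, at -0.94 and -0.93.

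Markers of other cells that carry class II differed between the groups by unlike amounts. B cell markers were lower in AAV-IL-27 than class II genes were. Their sum over 10 genes was 35.5, 47.5 and 6.28 FPKM, or 15.1% of the AAV-Ctrl mean. Of the 7 with a mean of at least 1 FPKM, 6 were lower than both by 1 log2 unit, beside 2.32% of all genes. Cd79a, a chain of the B cell receptor complex, was at 9.78, 13.56 and 1.49 FPKM, and Cd79b, its partner, was at 9.81, 11.00 and 1.81 FPKM. All 10 were higher in AAV-Ctrl 2 than in AAV-Ctrl 1, beside 49.4% of all named genes, and their sum in AAV-Ctrl 2 was 134% of AAV-Ctrl 1, where class II stood at 151%. The ratio of the summed class II genes to the summed B cell markers was 6.38, 7.22 and 29.7. That of H2-Aa to Cd79a was 3.88, 4.24 and 23.9.

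Macrophage markers summed to 983, 957 and 352 FPKM over 12 genes (36.3% of the AAV-Ctrl mean). Of the 12, 10 were lower than both AAV-Ctrl libraries by 1 log2 unit, beside 2.32% of all genes. Hmox1, the haem-degrading enzyme, was at 207, 164 and 57.9 FPKM, and Slc40a1, the iron exporter, at 168, 152 and 121 FPKM. C1qa, a complement chain made by macrophages, was at 138, 146 and 39.4 FPKM, so the ratio of H2-Aa to C1qa was 0.276, 0.394 and 0.903. The macrophage sum in AAV-Ctrl 2 was 97.4% of AAV-Ctrl 1 and did not share the gap seen for class II.

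Dendritic cell markers summed to 33.9, 36.5 and 42.6 FPKM over 12 genes, a sum made up largely of Itgax (17.28, 11.89 and 24.64 FPKM), Bst2 (6.63, 12.72 and 11.19 FPKM) and Irf8 (7.49, 7.89 and 4.66 FPKM), which other myeloid cells also express. The other 9, among them the defining genes Flt3, Zbtb46, Xcr1 and Clec9a, were below 1 FPKM in each library and at 0 in none. All of these 9 were higher in AAV-Ctrl 2 than in AAV-Ctrl 1, beside 48.1% of all genes with a mean below 1 FPKM, but each rests on an estimated 3 to 24 fragments per library. Among them, Batf3 was at 0.24, 0.72 and 0.24 FPKM, Clec9a at 0.71, 0.79 and 0.58 FPKM and Ccr7 at 0.42, 0.60 and 0.11 FPKM. Xcr1 (0.15, 0.25 and 0.23 FPKM), Cd209a (0.26, 0.62 and 0.29 FPKM) and Flt3 (0.23, 0.34 and 0.23 FPKM) were not below AAV-Ctrl 1. Of all 12 dendritic cell markers, 6 were below both AAV-Ctrl libraries and 1 above, beside 41.8% of all named genes below both. For genes with a mean of 0.2 to 2 FPKM, a range that holds most of these 12 markers, the share below both was 60.6%. No share above both was computed for all named genes. Monocyte markers, led by Ly6c2 and Csf1r, summed to 1109, 1170 and 1234 FPKM over 8 genes. Most of that sum was Ly6c2 (1023, 1086 and 1145 FPKM). Of the 6 monocyte markers with a mean of at least 1 FPKM, 4 were above both AAV-Ctrl libraries, beside 38.9% of all genes. T and NK cell markers summed to 14.8, 15.6 and 14.0 FPKM over 7, led by Cd3d (7.4, 6.35 and 7.06 FPKM) and Cd4 (4.03, 4.25 and 2.03 FPKM). That sum rests largely on these 2 genes. Cd3e (0.11, 0.23 and 0.08 FPKM) and Cd3g (0.71, 0.22 and 0.66 FPKM) were below 1 FPKM in each library. Neutrophil markers summed to 176767, 172462 and 167536 FPKM over 14. Of the melanoma markers, Mlana was listed at 0 in all 3 libraries, Pmel was at 0.33, 0.70 and 0.35 FPKM, and Tyr was at 0.24, 0.24 and 0.34 FPKM. The part of any of these cells in the class II values was not tested.

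**Figure D5:**
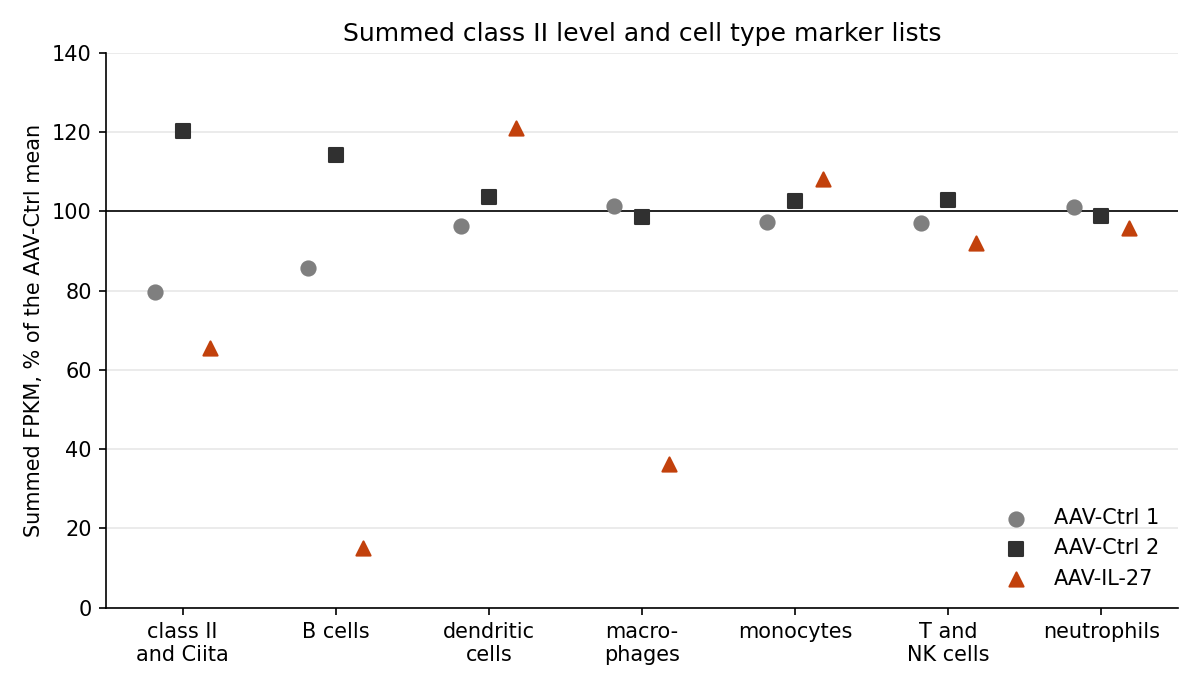
Summed FPKM of the 8 class II genes and of 6 marker lists in each library, as a percentage of the AAV-Ctrl mean (line at 100), with AAV-Ctrl 1 as grey circles, AAV-Ctrl 2 as black squares and AAV-IL-27 as orange triangles. In AAV-IL-27, class II stands at 65.5%, B cell markers at 15.1%, macrophage markers at 36.3% and neutrophil markers at 95.9%.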

How the data were processed

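RNA was extracted from Ly6G+ BM cells with Trizol, enriched with oligo-dT, converted to strand-marked (dUTP) libraries and sequenced on the DNBSEQ platform, per the labels. The authors deposited FPKM values, which are fragments scaled by transcript length and by library size, to 2 decimals for 16073 rows, of which 1 has no symbol and was left out. The submitters' processing notes name mm10. The aligner and counting tool are not given in the sources used here. The design text counts 4 mice and gives 2 AAV-Ctrl mice and 1 AAV-IL-27 mouse. The 3 libraries were grouped by their titles, and 1 further column of per-sample values, whose name marks it as IL-27 but matches no listed sample, was not used.

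Differences were computed as log2(FPKM + 1) of AAV-IL-27 minus the AAV-Ctrl mean. Genes with a mean of at least 1 FPKM over the 3 libraries were counted when the value differed from both AAV-Ctrl libraries in 1 direction by 1 log2 unit or more. No p-value was computed. Depth was fitted on the low values of 10934 genes listed with 1 transcript, with lengths from GENCODE M21 less 70 nt, and 77.1% to 78.8% of 249 to 271 values fell within 0.2 of a whole fragment, so fragment numbers are approximate and were not tested as counts. Intervals are exact Poisson intervals at 95%. Gene numbers matched RefSeq for 16035 genes. The functions were tested on simulated data.

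The genes described, the pathway and marker lists, and the rules were chosen with earlier results of these data known. All 8 genes are named. Pathway genes are counted in full and named where they lie 1 log2 unit from both AAV-Ctrl libraries or where their role or level bears on the 8 genes. Of each marker list the 2 most abundant genes and those at 0 are named. Other named markers (Ly6g, C1qa, Irf8, Batf3, Clec9a, Ccr7, other dendritic cell markers, Cd3e, Cd3g, Pmel and Tyr) were chosen after their values were seen. Alternatives were pseudocounts of 0.1 and 0.01, no filter or 5 FPKM, equal FPKM totals, median ratios, thresholds of 0.5 and 2, and leaving out each AAV-Ctrl library. A gene of the pathway lists is not reported here and was left out of their counts. Of the lists, Ighm, Iglc2, Trac, Tyrp1 and Dct were not analysed here. The software was Biopython 1.88, matplotlib 3.10.9, scipy 1.17.1, pandas 2.3.3 and numpy 2.4.6 under Python 3.11.15.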

Additional observations from a re-analysis of the deposited data

How the results depend on the processing

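All 48 differences of the 8 genes under alternatives were negative. Since all 8 genes were below both AAV-Ctrl libraries, only the rescalings could have turned a sign. Pseudocounts and leaving out a library could not. Leaving out 1 of 2 AAV-Ctrl libraries cannot move a difference by 1 SD of AAV-Ctrl, and it took H2-Eb1 to between -0.88 and -0.03. Pseudocounts moved 4 differences by more than 1 SD of AAV-Ctrl, taken on log2(FPKM + 1), and rescalings moved none by that much. All 4 were of genes with low values, for which a smaller pseudocount widens the difference by its construction. Ciita was at -0.79 with a pseudocount of 0.1 and at -0.97 with 0.01, and H2-Oa at -1.06 and -1.18. The median of -0.46 ran from -0.75 to -0.13 when 1 AAV-Ctrl library was left out and from -0.48 to -0.40 under the other alternatives. Without the filter on low values, the difference exceeded the AAV-Ctrl gap in 4 genes in place of 2, since H2-Oa and Ciita then entered. The count of genes below both AAV-Ctrl libraries was 8 without the filter and 5 with either rescaling. The counts at 1 log2 unit were 0 under all alternatives. The summed level, whose alternatives were added after the data had been seen, ran from 54.5% to 82.3% of AAV-Ctrl when 1 AAV-Ctrl library was left out, and was 67.3% with equal totals and 68.3% with median ratios. Over all genes, the 212 lower and 28 higher genes became 396 and 42 with a pseudocount of 0.1, 425 and 46 with 0.01, 93 and 22 at 5 FPKM, 640 and 143 at a threshold of 0.5 and 39 and 5 at 2. Without AAV-Ctrl 1 there were 294 and 40, and without AAV-Ctrl 2 there were 243 and 49. No paired analysis was possible because only the number 2 occurs in both groups. Spread between mice given AAV-IL-27 was not assessed, since 1 such library was used and the further column named for IL-27 was not, and the low fragment numbers of Ciita, H2-Oa and H2-Eb2 limit what can be seen for them.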
